A study of Mus musculus with 4 samples.

Results

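The vacuolar H+-ATPase (V-ATPase) is described here through 10 of its subunit genes, 4 of the membrane sector V0 (Atp6v0b, Atp6v0c, Atp6v0d1 and Atp6v0e) and 6 of the cytosolic sector V1 (Atp6v1a, Atp6v1b2, Atp6v1c1, Atp6v1d, Atp6v1e1 and Atp6v1h). The members were chosen by gene symbol among the 49568 symbols of the deposited table, and all 10 were found and passed the filter on low values. RNA was sequenced in 2 libraries labelled migrasome and 2 labelled cytosol, all of mouse origin. Migrasomes are vesicles that form on the retraction fibres a moving cell leaves behind. The sources used here do not give the strain, the cell type, a treatment or the purification of the fractions. They also do not say whether replicates are separate cultures, and every p-value therefore reflects the spread among these 4 samples, which may be technical. Cytosol replicates 1 and 2 gave 7529136 and 8608369 gene reads, and migrasome replicates 1 and 2 gave 5228713 and 5171092.

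The V-ATPase is a rotary proton pump that acidifies lysosomes, endosomes and secretory vesicles. V1 sits in the cytosol and hydrolyses ATP, and its turning rotor drives a ring of proteolipid subunits in V0, through which protons cross the membrane. Most V0 subunits are built into the membrane, and mRNAs of such proteins are as a rule translated on the endoplasmic reticulum. V1 subunits are soluble proteins made on free ribosomes, as is subunit d of V0, which caps the proteolipid ring from the cytosolic side and has no membrane segment of its own.

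Stretches of hydrophobic residues, as in membrane segments, can be looked for in the coding sequences. Codons with T in second position (NTN) encode hydrophobic residues, and the window of 19 codons (57 bases) that holds the most of them was located in each coding sequence. Of the members, 6 are shown, read from the GENCODE M21 transcripts of GRCm38 in the sense of the mRNA and in frame, to set the 3 membrane-built V0 subunits beside the V0 cap d1 and the V1 members with the largest differences. Capitals mark T in second codon position.
Atp6v0b: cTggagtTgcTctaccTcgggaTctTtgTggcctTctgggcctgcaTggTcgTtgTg
Atp6v0c: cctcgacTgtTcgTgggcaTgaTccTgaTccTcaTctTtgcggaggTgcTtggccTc
Atp6v0e: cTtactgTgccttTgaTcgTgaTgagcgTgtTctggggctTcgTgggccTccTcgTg
Atp6v0d1: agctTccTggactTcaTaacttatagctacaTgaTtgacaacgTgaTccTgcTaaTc
Atp6v1a: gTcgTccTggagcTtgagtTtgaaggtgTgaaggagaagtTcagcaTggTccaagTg
Atp6v1c1: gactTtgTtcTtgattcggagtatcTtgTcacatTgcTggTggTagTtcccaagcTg

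These windows lie within single exons at chr4:117887171-117887227 (minus strand) for Atp6v0b, chr17:24164443-24164499 (minus) for Atp6v0c, chr17:26676490-26676546 (plus) for Atp6v0e and chr16:44109587-44109643 (minus) for Atp6v1a. Those of Atp6v0d1 (chr8:105530957-105539340, minus) and Atp6v1c1 (chr15:38681113-38682944, plus) cross an exon junction, so the span includes an intron. The richest window held 12 such codons of 19 in Atp6v0b and 13 in both Atp6v0c and Atp6v0e. In Atp6v0d1 it held 11, as in Atp6v1c1, and in the other 5 V1 members 9 or 10. Over the whole coding sequence, such codons made up 41.0% of Atp6v0b, 41.9% of Atp6v0c and 43.2% of Atp6v0e, against 32.5% of Atp6v0d1 and 29.5% to 31.7% of the V1 members.

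Between the fractions, the medians of the V0 and V1 members moved apart, though not every member followed its sector. A difference below is the migrasome mean less the cytosol mean of log2(value + 1), a value being the deposited normalised read count, and its standard error (SE) is that of limma, a linear model fitted to all tested genes. A gene rose or fell where its adjusted p (Benjamini-Hochberg) was under 0.05. Of the 4 V0 members 2 fell and none rose, and of the 6 V1 members 2 rose and none fell. Among all 10860 genes tested, 17.7% fell and 8.68% rose, 26.4% in all. In bulk libraries such as these, fewer vesicles with an mRNA and less of it per vesicle cannot be told apart. The median difference was -0.45 over the V0 members and 0.40 over the V1 members, and -0.00 over all genes tested. Atp6v0d1 of V0 was at 0.43 and Atp6v1b2 of V1 at -0.10, each against the median of its sector. Of the 10 members 6 neither rose nor fell. With so few members these counts and medians describe the list and are not a test of it.

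Within each library the V0 and V1 members can be compared without regard to how the libraries were scaled. The V0 members made up 27.3% and 28.9% of the summed values of all 10 members in cytosol (replicate 1, then 2), against 15.7% and 19.5% in migrasome. Both migrasome libraries thus lay below both cytosol libraries. These sums are not corrected for length, and the genes with the highest values weigh most. On the deposited scale the V0 sums were 1336 and 1446 in cytosol and 1124 and 1169 in migrasome. The V1 sums were 3566 and 3550 in cytosol and 6043 and 4831 in migrasome. The mean log2 value of the V0 members minus that of the V1 members was -1.11 and -0.89 in cytosol and -2.08 and -1.64 in migrasome, in the same order. With the cap subunit gene Atp6v0d1 left out, a choice made after the values were seen, it was -1.11 and -0.93 in cytosol and -2.42 and -1.91 in migrasome. With 2 libraries a group the smallest p of an exact permutation test is 0.33, and none is given for these values.

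**Figure D1:**
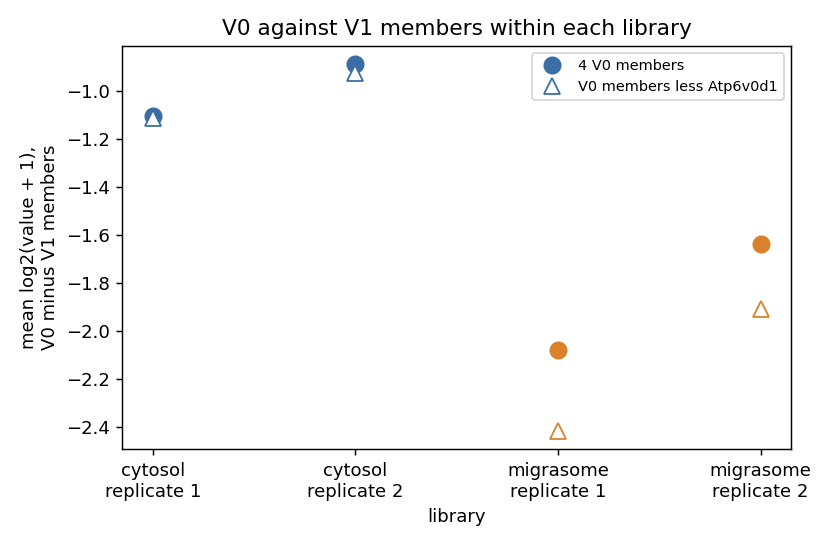
Mean log2(value + 1) of the V0 members minus that of the 6 V1 members (vertical axis) in each of the 4 libraries (horizontal axis); filled circles use all 4 V0 members and open triangles leave out Atp6v0d1. The cytosol libraries lie at -1.11 and -0.89 and the migrasome libraries at -2.08 and -1.64.

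The proteolipid ring of V0 is made of many copies of subunit c, encoded by Atp6v0c, and a related subunit encoded by Atp6v0b. Atp6v0b (chromosome 4 from 117884326 to 117887333, minus strand, GRCm38, GENCODE M21, as are all positions) stood at 657.8 and 636.5 in cytosol (replicate 1, then 2, here and below) and at 362.0 and 421.1 in migrasome. Both migrasome libraries were below both cytosol libraries, as for 36.3% of all genes tested, while 33.3% lay above. Groups that did not overlap in either direction were found for 8 of the 10 members and for 69.5% of all genes tested. The difference was -0.73 ± 0.20 (SE), and it passed (limma adjusted p = 0.027).

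Atp6v0c (chromosome 17 from 24163866 to 24169702, minus strand) was the lowest member, at 48.1 and 61.7 in cytosol and 22.6 and 23.7 in migrasome. These values rest on 62, 90, 16 and 18 reads, in the order cytosol 1 and 2, migrasome 1 and 2. The groups did not overlap, and the difference was -1.20 ± 0.33 (limma adjusted p = 0.026). A processed pseudogene, Atp6v0c-ps2, matches 465 bases of the Atp6v0c transcript at 99.8% identity, and another, Atp6v0c-ps1, at 97.2%. Reads from these stretches cannot be told apart well, and the sources used here do not say whether reads with several places were counted, so the level of Atp6v0c is uncertain. Atp6v0c-ps1 was listed at 0 in all 4 libraries, and Atp6v0c-ps2 was not found in the table under that symbol.

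Atp6v0e encodes the small subunit e, which is nearly all membrane segment. It lies on chromosome 17 from 26663231 to 26699647 (plus strand) and stood at 393.3 and 456.1 in cytosol and 366.3 and 385.6 in migrasome. The migrasome libraries were just below the cytosol libraries, and the difference of -0.17 ± 0.21 did not pass (limma adjusted p = 0.55, 95% interval -0.63 to 0.29). Its richest window holds as many NTN codons as that of Atp6v0c, which fell by 1.20 on the log2 scale.

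Atp6v0d1 (chromosome 8 from 105524465 to 105566047, minus strand), the gene of the V0 cap that joins the ring to the rotor, was on the other side. It stood at 236.6 and 291.5 in cytosol and 373.4 and 338.2 in migrasome, higher in both migrasome libraries. The difference of 0.43 ± 0.22 did not pass (limma adjusted p = 0.16, 95% interval -0.05 to 0.92). Within a library, the log2 value of Atp6v0d1 minus that of Atp6v0b was -1.47 and -1.12 in cytosol and 0.04 and -0.32 in migrasome. Relative to the ring gene, the cap gene was thus higher in both migrasome libraries than in either cytosol library. This had to follow, since Atp6v0d1 alone was higher and Atp6v0b alone lower in both migrasome libraries, and it is no separate result. These values are not corrected for length, so they do not compare the levels of both genes with each other.

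The calls of Atp6v0b and Atp6v0c were lost without cytosol replicate 1 (limma adjusted p = 0.19 and 0.10) or replicate 2 (0.15 and 0.26), and without a filter on low values (0.053 and 0.066). That of Atp6v0b was also lost without a trend in the variance model (0.065), and that of Atp6v0c with quantile normalization (difference -0.79, adjusted p = 0.10) and with DESeq2 (0.071).

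**Figure D2:**
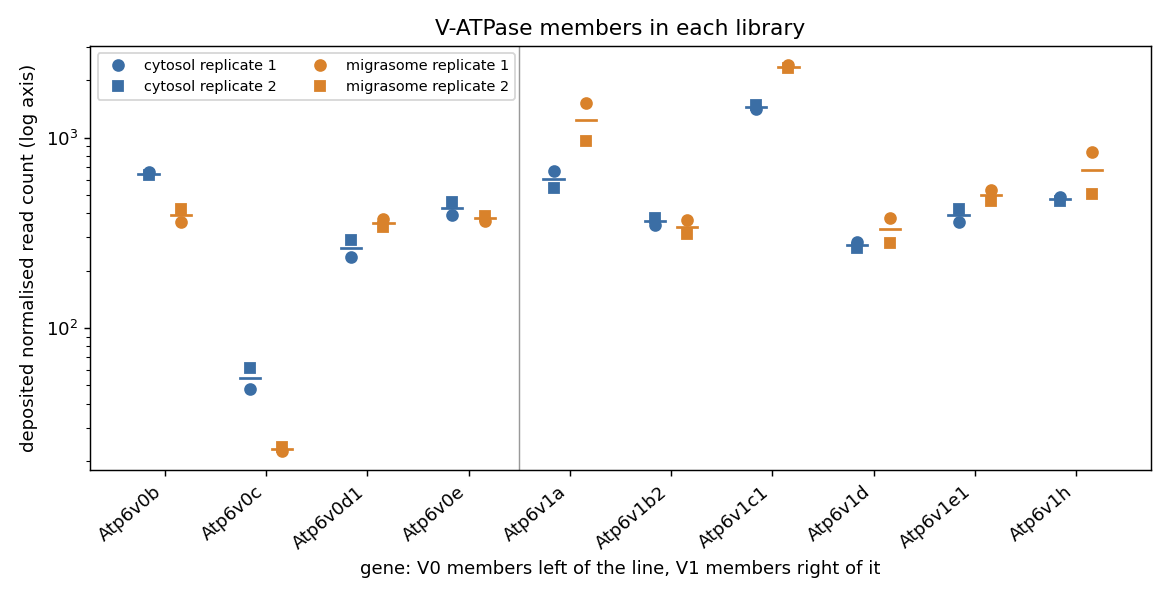
Deposited normalised read count (vertical log axis) of each of the 10 members (horizontal axis) in cytosol (blue) and migrasome (orange), with circles for replicate 1, squares for replicate 2 and a bar at the mean of the 2 libraries. Atp6v0b and Atp6v0c are lower in both migrasome libraries, and Atp6v1a and Atp6v1c1 are higher in both.

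In V1, subunits A and B alternate in the head that hydrolyses ATP, and Atp6v1a encodes the catalytic subunit A. Atp6v1a (chromosome 16 from 44085402 to 44139705, minus strand) stood at 670.2 and 543.9 in cytosol and 1526 and 955.5 in migrasome. Both migrasome libraries were above both cytosol libraries, with a wide gap between the migrasome replicates. Atp6v1a rose by 1.00 ± 0.25 (limma adjusted p = 0.019), the largest difference among the V1 members. It was 1.34 without migrasome replicate 2 and 0.66 without migrasome replicate 1. A processed pseudogene, Gm18990, matches 296 bases of the Atp6v1a transcript at 90.2% identity and was not found in the table under that symbol.

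Atp6v1b2, the gene of the partner subunit B on chromosome 8 from 69088646 to 69113711 (plus strand), did not follow Atp6v1a. It stood at 349.1 and 380.0 in cytosol and 369.1 and 311.9 in migrasome, and the groups overlapped. The difference was -0.10 ± 0.21 (limma adjusted p = 0.74, 95% interval -0.57 to 0.37). Whether the differences of these partner genes differ from each other was not tested.

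Subunits C, E and H belong to the stalks that hold the V1 head still against V0 or, in the case of H, regulate the pump when the sectors part. Atp6v1c1, encoding subunit C (chromosome 15 from 38661933 to 38692446, plus strand), was the member with the highest value, at 1417 and 1479 in cytosol and 2397 and 2312 in migrasome. Its replicates lay close together in both groups, and it rose by 0.70 ± 0.20 (limma adjusted p = 0.027). Atp6v1e1, encoding subunit E (chromosome 6 from 120794305 to 120822793, minus strand), stood at 359.9 and 422.5 in cytosol and 528.9 and 464.6 in migrasome. The migrasome libraries were the higher ones, but the difference of 0.35 ± 0.21 did not pass (limma adjusted p = 0.24). Atp6v1h, encoding subunit H (chromosome 1 from 5070018 to 5162529, plus strand), stood at 487.9 and 463.0 in cytosol and 842.9 and 508.0 in migrasome. Here migrasome replicate 1 was high and replicate 2 lay just above cytosol, and the difference of 0.46 ± 0.26 did not pass (limma adjusted p = 0.20). It was 0.83 without migrasome replicate 2, where it passed (adjusted p = 0.0054), and 0.10 without migrasome replicate 1.

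Subunit D, the axle of the rotor, is encoded by Atp6v1d on chromosome 12 from 78840725 to 78861638 (minus strand). It stood at 282.4 and 262.0 in cytosol and 379.0 and 279.0 in migrasome, so migrasome replicate 2 lay between the cytosol libraries. The difference of 0.26 ± 0.23 did not pass (limma adjusted p = 0.42, 95% interval -0.26 to 0.77). With every library scaled to the same total it was -0.015.

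Of the V1 members, 4 were higher in both migrasome libraries than in either cytosol library, none was lower in both, and Atp6v1b2 and Atp6v1d overlapped. Of all genes tested, 33.3% were higher in both and 36.3% lower in both. The call of Atp6v1c1 did not hold without cytosol replicate 1 (limma adjusted p = 0.23) or replicate 2 (0.18), that of Atp6v1a without cytosol replicate 2 (0.096). Both calls were lost with every library scaled to the same total (0.053 for Atp6v1a and 0.095 for Atp6v1c1), which moved the median of all genes by -0.27, and without a filter or a trend (0.052 to 0.066), and that of Atp6v1c1 with quantile normalization (difference 0.37, adjusted p = 0.13).

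The 24 pairs of a V0 with a V1 member were compared within each library. In 18 pairs the log2 ratio of the V0 to the V1 member was lower in both migrasome libraries than in either cytosol library, in 2 it was higher and in 4 the groups overlapped. All 6 pairs of Atp6v0b, all 6 of Atp6v0c and 5 of the 6 of Atp6v0e were among the 18, but only 1 of the 6 of Atp6v0d1. The ratio of Atp6v0c to Atp6v1a differed most between the groups, at -3.77 and -3.12 in cytosol and -6.01 and -5.28 in migrasome. In pairs of Atp6v0b, Atp6v0c or Atp6v0e with Atp6v1a, Atp6v1c1, Atp6v1e1 or Atp6v1h, a lower ratio was fixed in advance. Each of these V0 genes alone was lower, and each of these V1 genes alone higher, in both migrasome libraries. The pairs share genes and libraries and are no independent observations. No share over all gene pairs was computed, and among single genes 69.5% did not overlap in either direction, so the count is a description.

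Levels of different genes were compared per kilobase of their annotated exons, which may be longer than the mRNA in these cells. On this scale Atp6v0b was the highest member in cytosol, at 315.5 ± 7.36 per kb (SD, n = 2), followed by Atp6v1c1 at 258.5 ± 7.85 and Atp6v0d1 at 147.3 ± 21.6. Atp6v0e (114.4 ± 11.96), Atp6v1a (100.4 ± 14.8) and Atp6v1e1 (95.2 ± 10.8) came next, and the libraries of each overlapped those of the next. Below them stood Atp6v1b2 (68.7 ± 4.12), Atp6v1d (59.1 ± 3.13), Atp6v1h (48.8 ± 1.81) and, far lower, Atp6v0c (16.2 ± 2.85). In migrasome Atp6v1c1 came first at 420.4 ± 10.7 per kb. Atp6v1a (205.3 ± 66.7), Atp6v0d1 (198.4 ± 13.9) and Atp6v0b (190.9 ± 20.4) followed with overlapping libraries, and then Atp6v1e1 (120.9 ± 11.1) and Atp6v0e (101.3 ± 3.68). Atp6v1d (71.5 ± 15.4), Atp6v1h (69.3 ± 24.3) and Atp6v1b2 (64.2 ± 7.62) overlapped, and Atp6v0c was again last at 6.84 ± 0.22. The order depends on the length used. Per kilobase of the 1 transcript chosen per gene, an alternative added after the values were seen, Atp6v1c1 came first in both groups (699.0 ± 21.2 in cytosol, 1137 ± 28.9 in migrasome), with Atp6v0b next (647.2 ± 15.1 and 391.6 ± 41.8). In migrasome the libraries of Atp6v0b overlapped those of Atp6v1e1 (378.6 ± 34.7) and Atp6v1h (329.6 ± 115.6) on this scale. Atp6v0c was last on both scales.

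Among the other subunit genes, those of membrane subunit a fell and that of rotor subunit F rose. Of the 6 other V0 genes 4 were tested, and the 3 that encode the large membrane subunit a all fell. Atp6v0a1 stood at 296.3 and 212.6 in cytosol and 96.2 and 92.1 in migrasome (-1.41 ± 0.25, limma adjusted p = 0.0035). Atp6v0a2 stood at 253.7 and 302.5 in cytosol and 108.9 and 147.4 in migrasome (-1.12 ± 0.25, adjusted p = 0.010), and Tcirg1, which encodes the form a3 used by osteoclasts, at means of 75.7 and 31.3 (-1.25 ± 0.30, adjusted p = 0.015). The call of Atp6v0a2 was lost without cytosol replicate 2 (adjusted p = 0.080), and that of Tcirg1 without cytosol replicate 1 (0.16) or 2 (0.076) and with quantile normalization (0.064). Atp6v0e2, the paralog of Atp6v0e, stood at 58.8 ± 12.9 (SD, n = 2) in cytosol and 65.2 ± 8.25 in migrasome and did not pass (0.16 ± 0.30). That difference was -0.11 with every library scaled to the same total and -0.063 without cytosol replicate 1.

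Of the 7 other V1 genes 2 were tested. Atp6v1f, encoding rotor subunit F, stood at 201.7 and 203.7 in cytosol and 360.6 and 298.7 in migrasome and rose by 0.69 ± 0.22 (limma adjusted p = 0.042). Its call was lost without cytosol replicate 1 (0.23) or 2 (0.21), without migrasome replicate 1 (0.089), with every library scaled to the same total (0.17), and without a filter (0.076) or a trend (0.077). Atp6v1g1, encoding stalk subunit G, stood at 1021 and 855.3 in cytosol and 1314 and 984.4 in migrasome and did not pass (0.28 ± 0.22). Several other paralogs were hardly seen. Atp6v0d2, Atp6v1b1, Atp6v1e2 and Atp6v1g3 were listed at 0 in all 4 libraries, where a value under that of 3 reads (2.33 and 2.06 in cytosol, 4.24 and 3.95 in migrasome) would go unseen by counting error alone. Atp6v0a4, Atp6v1c2 and Atp6v1g2 had no value above 9.60.

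Over every tested subunit gene, 5 of 8 V0 genes fell and none rose, and 3 of 8 V1 genes rose and none fell, where 17.7% of all genes tested fell and 8.68% rose. The medians were -0.92 for V0 and 0.40 for V1.

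**Figure D3:**
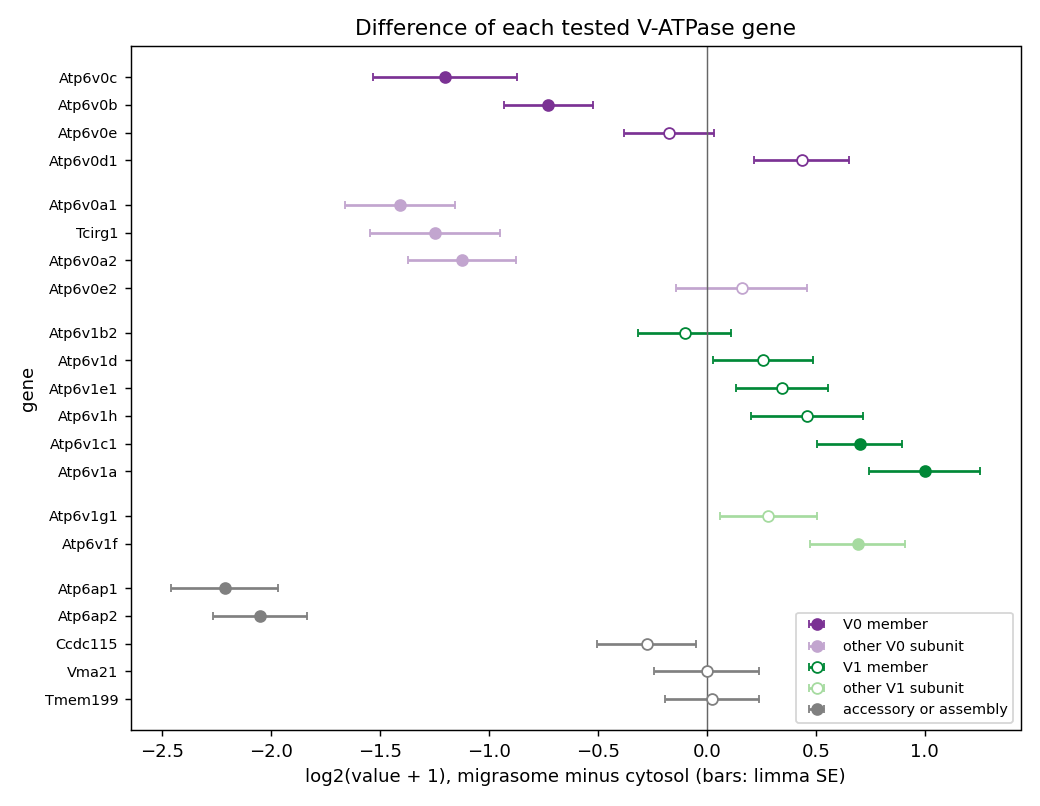
Difference between migrasome and cytosol on the log2(value + 1) scale (horizontal axis; points are estimates, bars the limma SE) for each tested V-ATPase gene (vertical axis), with filled points for genes that passed an adjusted p of 0.05. The subunit a genes, Atp6v0c, Atp6ap1 and Atp6ap2 are the lowest, between -1.12 and -2.21, and Atp6v1a is the highest at 1.00.

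The accessory proteins Atp6ap1 and Atp6ap2 (the prorenin receptor) span the membrane and join V0 during assembly. Atp6ap1 stood at 596.6 and 577.5 in cytosol and 103.2 and 154.0 in migrasome, and fell by 2.21 ± 0.25 on the log2 scale (limma adjusted p = 0.00054). Atp6ap2 stood at 622.2 and 544.6 in cytosol and 132.9 and 147.4 in migrasome, and fell by 2.05 ± 0.21. Both differences were larger in size than that of any of the 10 members, and both calls held in each of 14 alternatives. The assembly factors of the endoplasmic reticulum did not pass. Vma21 stood at 228.2 ± 24.0 in cytosol and 230.3 ± 50.3 in migrasome, Tmem199 at 297.1 ± 9.88 and 303.0 ± 39.5, and Ccdc115 at 183.0 ± 10.9 and 151.0 ± 11.6 (SD, n = 2). Vma21 and Tmem199 encode small membrane proteins, and the 95% intervals of their differences, -0.54 to 0.54 and -0.46 to 0.50, do not reach the falls of Atp6ap1 and Atp6ap2. Both differences were below 0 in some settings (-0.27 and -0.25 with every library scaled to the same total). Atp6ap1l was listed at 0 in all 4 libraries.

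Soluble partners of the pump were listed too. Among 6 tested regulators of the RAVE complex and the TLDc family, which help V1 join or leave V0, none passed limma, 0 had an unadjusted p under 0.05, and edgeR and DESeq2 called 0. Their median difference was 0.15, with Dmxl1 at 1088 ± 34.9 in cytosol and 961.7 ± 19.96 in migrasome, and Oxr1 at 557.1 ± 13.3 and 692.6 ± 0.50. Among 8 tested genes of Ragulator and the Rag GTPases, which sense amino acids on the lysosome together with the V-ATPase, limma, edgeR and DESeq2 each called 0 and 1 had an unadjusted p under 0.05 (median 0.24). That one was Lamtor2 (0.61 ± 0.21, limma adjusted p = 0.054), which passed in 4 of 14 alternatives: a minimum mean of 50 (0.048), quantile normalization (0.028), the replicate block (0.020) and without migrasome replicate 2 (0.022). Over the other alternatives its adjusted p ran from 0.053 to 0.32. Of all genes tested 17.7% fell and 8.68% rose. Of 17 lysosomal membrane protein genes 14 fell and none rose, with a median of -1.66. Lamp1 (-1.61 ± 0.21) and Lamp2 (-1.76 ± 0.22) were among them.

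The mitochondrial F-ATP synthase is a rotary machine of related design, and its nuclear-encoded subunits are made in the cytosol and imported. Of its 5 F1 genes 4 rose (median 0.72), against 8.68% of all genes tested, among them Atp5a1 (0.92 ± 0.22) and Atp5b (1.01 ± 0.26). Of its 10 genes of the membrane sector and stalk 2 rose (median 0.48). The calls of Atp5a1 and Atp5b were lost without 1 or the other of the cytosol libraries (limma adjusted p 0.14 to 0.21), with quantile normalization (differences of 0.28 and 0.25, adjusted p = 0.22 and 0.29) and without a filter (0.051 and 0.072). The ring gene Atp5g3 did not pass (0.38 ± 0.20, limma adjusted p = 0.18), while the V-ATPase ring genes Atp6v0b and Atp6v0c fell, and whether these differ was not tested.

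The codon measure was set beside the differences of all 9989 tested genes with a complete coding sequence. Among genes whose richest window held 9 or fewer NTN codons, the median difference was 0.11 and 8.16% fell. With 10 to 12 such codons the median was -0.01 and 18.1% fell. With 13 to 15 the median was -1.20 and 59.2% fell, and with 16 or more, in 62 genes, it was -1.02 and 56.5% fell. Atp6v0c (13 codons, -1.20) lay at the median of genes with 13 such codons (-1.18), and Atp6v0b (12 codons, -0.73) near that of genes with 12 (-0.64). The F-ATP synthase ring genes Atp5g1, Atp5g2 and Atp5g3 also have 12, with differences of 0.29, 0.42 and 0.38 that did not pass. They lay above the upper quartile of that class (0.12). Atp6v0e (13 codons, -0.17) lay above the upper quartile of its class (-0.33). Atp6v0d1 (11 codons, 0.43) and Atp6v1c1 (11 codons, 0.70) lay above the upper quartile of genes with 11 (0.40). Atp6v1a (10 codons, 1.00) lay above the upper quartile of genes with 10 (0.49), while Atp6v1d, Atp6v1e1, Atp6v1h and Atp6v1b2 lay between the quartiles of theirs. The measure counts signal sequences as well as membrane segments, it was chosen with results of these data known, and genes are not independent replicates, so it is a description.

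**Figure D4:**
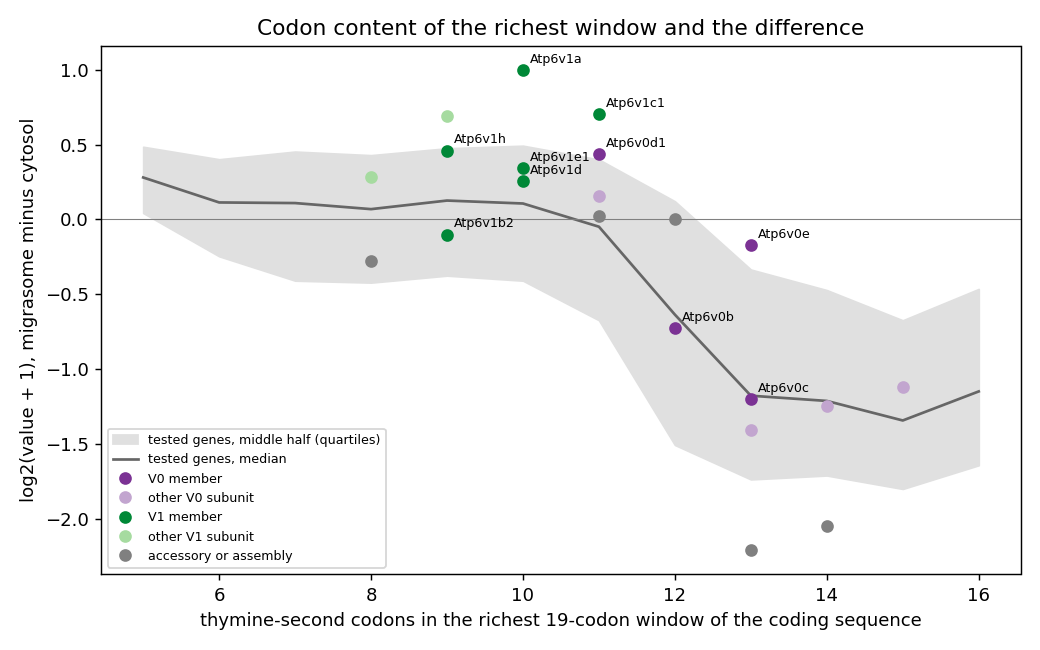
Number of codons with thymine in second position in the richest 19-codon window of the coding sequence (horizontal axis) against the difference between migrasome and cytosol on the log2(value + 1) scale (vertical axis). The grey band and line give the quartiles and median of all tested genes with that number of codons (numbers with under 20 genes left out), and points are V-ATPase genes. The band falls beyond 11 codons, where Atp6v0b, Atp6v0c and the subunit a genes lie, and also Atp6v0e (-0.17) and Vma21 (0.00), which did not pass.

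Genes with profiles over the 4 libraries most like the mean of the V0 members, among 6954 named genes with a mean of at least 100, were Fastkd2, Polr1b, Grk5, Pwp2 and Araf, at Euclidean distances of 0.02 to 0.06 between centred log2 profiles. Their differences ran from -0.43 to -0.37. Single V0 members ran from -1.20 to 0.43, so likeness to their mean is not likeness to each member. Nearest to the mean V1 profile were Opa1, Pds5b, Elavl1, Atad2 and Plaa, at distances of 0.03 to 0.05, with differences of 0.41 to 0.48. With 4 libraries such likeness is common and only describes the profiles.

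The fractions also differed in RNAs outside the V-ATPase. RNAs kept in the nucleus were summed over 6 genes to 157072 and 137688 in cytosol and 34044 and 41866 in migrasome. Most of this is Rn7sk and Rmrp, and the libraries of both groups thus hold RNAs known from the nucleus. Of the 5 tested, 2 fell and none rose, where 17.7% of all genes tested fell and 8.68% rose. By edgeR 3 were lower and by DESeq2 4, where 2064 and 1599 of all 10860 genes were. All 5 were lower in both migrasome libraries than in either cytosol library, as were 36.3% of all genes tested. Of 8 tested fibroblast markers 5 fell, among them Col1a1 (-1.97) and Col1a2 (-2.20), and 1 rose (Vim, 0.94). Of all genes tested 17.7% fell and 8.68% rose. The fibroblast markers summed to 53827 and 49359 in cytosol and 73050 and 59289 in migrasome, Lum being at 0. These sums are mostly Vim and S100a4 and do not follow the markers that fell. Of 3 tested neural markers 2 rose by limma and by edgeR and 0 by DESeq2, with sums of 34.9 and 34.3 in cytosol and 86.3 and 76.3 in migrasome. The 5 macrophage markers summed to 18.6 and 28.1 in cytosol and 17.0 and 17.1 in migrasome, and 1 was tested, without passing. The 5 epithelial and 4 endothelial markers summed to at most 3.95 in any library, and none was tested. Their part in the V-ATPase differences was not tested.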

How the data were processed

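RNA of 2 migrasome and 2 cytosol libraries was grouped by sample title. Trimming (cutadapt, Trimmomatic), quality control (FastQC), alignment (STAR), counting (HTSeq) and DESeq are named, with GRCm38, in the submitters' processing notes, which give no roles. The deposited signal of a gene is its count over a size factor for the library, as the notes and the values show. Annotation, strand setting and handling of multiply mapped reads are unknown here. Dividing by the value of 1 read (0.776, 0.686, 1.41 and 1.32 in cytosol 1 and 2 and migrasome 1 and 2) gave whole reads for 100% of values (tolerance 0.001). On these reads edgeR 4.0.16 called 1071 genes higher and 2064 lower. Floors of 3 reads cover counting error only. Replicates differed beyond sampling noise (chi-square per degree of freedom 17.6 in cytosol, 27.9 in migrasome).

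The 10860 genes reaching 10 in 2 or more libraries were tested with limma 3.58.1 (R 4.3.3) on log2(value + 1), which understates changes of low genes, using eBayes with a trend, no replicate block and Benjamini-Hochberg adjustment at 0.05. Alternatives changed the pseudocount, filter, scaling, trend, block, libraries and tool (edgeR, and DESeq2 1.42.0). The fit was also run on simulated data, drawn independently with the same spread setting for all genes. Real replicates may differ otherwise, so that run is no check of the calls made here. Positions and coding sequences are from GENCODE M21 (GRCm38), the principal or else the longest coding sequence per gene. Exons of Atp6v1h overlap Rgs20 by 127 bases, those of Atp6v1e1 Slc25a18 by 32 and those of Atp6v0b Gm12841 by 243, all on the opposite strand, and such reads cannot be told apart without strand.

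The members, lists and rules were chosen with earlier results of these data known. Named were all V-ATPase genes and their pseudogenes, up to 4 of the most abundant tested genes of each other list, and the 5 genes nearest to each sector's profile. Lum was named after its values were seen.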

Additional observations from a re-analysis of the deposited data

How the results depend on the processing

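The difference between the V0 and V1 medians was -0.85, and it was below 0 in each of 14 alternatives. Dropping the filter or the trend, or adding the block, does not change the differences of single genes. A common scale for a library nearly cancels between V0 and V1, so these settings could not change the sign. Among the others, the difference between the medians was -0.57 with a minimum mean of 50, where Atp6v0c was not tested. It was -0.55 without migrasome replicate 1 and -1.12 without migrasome replicate 2. In alternatives chosen after seeing the data it was -1.13 without Atp6v0d1 and -1.33 over every tested subunit gene. The V0 median was -0.17 with a minimum mean of 50 and -0.72 with every library scaled to the same total, where the V1 median was 0.13. That scaling moved the median of all genes to -0.27, and quantile normalization moved it to 0.11. Leaving out each library gave V0 medians of -0.52 to -0.38 and V1 medians of 0.17 to 0.60.

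The 2 V0 members that fell became 0 without a filter, and 1 each with a minimum mean of 50, quantile normalization, no trend and DESeq2. Leaving out a library gave 0 to 2, with 0 without either cytosol library. The 2 V1 members that rose became 0 without a filter, with the same total and without a trend, and 1 with quantile normalization. Leaving out a library gave 0 (without cytosol replicate 2) to 3 (without migrasome replicate 2). In each limma count of 0 here 2 members had an unadjusted p under 0.05, except that 1 V0 member did without cytosol replicate 2. The cause was not tested.

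Over all genes 943 rose and 1919 fell. The number that rose was 393 without a filter, 322 with the same total (2522 fell), 483 without a trend and 1802 with the replicate block, and with quantile normalization 1194 rose and 1403 fell. Without cytosol replicate 1, 286 rose and 1147 fell, without cytosol replicate 2, 231 rose and 1183 fell, and without migrasome replicate 2, 2085 rose and 2800 fell. The labels do not say that replicate numbers pair the libraries. Deviations of same-numbered libraries from their group means correlated at 0.23 across genes. With 2 libraries a group, differently numbered libraries must give the opposite (-0.23), so this value cannot show whether libraries are paired. With the block 2 V0 members fell and 2 V1 members rose, as without it.

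Some differences that did not pass changed sign. With the same total Atp6v1d was -0.015, Atp6v0e2 -0.11, Vma21 -0.27 and Tmem199 -0.25, and with quantile normalization Ccdc115 was 0.024. Leaving out each library gave -0.22 to 0.019 for Atp6v1b2, -0.063 to 0.38 for Atp6v0e2, -0.22 to 0.22 for Vma21 (-0.11 without cytosol replicate 2) and -0.11 to 0.16 for Tmem199 (-0.011 without cytosol replicate 2). Among the 10 members depth limits Atp6v0c most, at 16 and 18 reads in the migrasome libraries.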
